A study of Mus musculus with 17 samples.

Results

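The S100 proteins are small calcium-binding proteins, named for their solubility in saturated ammonium sulfate. Each carries a pair of EF hands, loops that bind calcium and on binding expose a surface for a partner protein, and most work as dimers. S100a8 and S100a9 (calgranulins A and B) form calprotectin, which fills the cytosol of neutrophils, chelates zinc and manganese, and when released acts as an alarmin on Tlr4 and Ager; S100a6, S100a10 and S100a11 bind annexins at membranes; S100a4 binds non-muscle myosin and marks fibroblasts and some macrophages; S100a1 serves calcium handling in muscle, and S100a13 takes part in the export of Fgf1 and Il1a, which lack a signal peptide. The genes described here are the 8 whose symbols on the array were S100a1, S100a4, S100a6, S100a8, S100a9, S100a10, S100a11 and S100a13, each read by 1 probe, of 21453 genes read by 41174 probes. All 8 lie on mouse chromosome 3, where S100a1 and S100a13 stand at one end of the S100 cluster and S100a8 and S100a9 side by side near the other, with S100a11 and S100a10 apart from it. A further 7 S100 genes were on the array, of which 6 could be tested.

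Liver RNA of 17 male mice, 1 array each, was labelled with Cy5 and hybridized against a Cy3-labelled commercial mouse RNA mixture, so that every level below is a log2 ratio of liver to that mixture. The strain was C57BL/6N by the labels and C57BL/6J by the study's methods. The groups were chow with a maltose gavage (chow, n = 4), chow with 1 gavage of ethanol at 5 g/kg (1B, n = 4), high-fat diet with maltose (HFD, n = 4) and high-fat diet with the ethanol gavage (HFD+1B, n = 5). Diets ran for 3 months and tissue was taken 9 h after the gavage, so all 4 groups share a gavage and the model is a single binge on whole liver, not chronic drinking.

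A probe was tested if its Cy5 spot stood well above background on at least 4 arrays, which left 34650 probes. The arrays lay on 5 slides, each holding more than 1 group. All 11 hepatocyte markers with a probe, of 12 listed, were well above background on every array. Median Cy5 signal was lower on the HFD arrays (43.0 to 78.0) than on the chow arrays (79.5 to 116), and 73.8% to 85.9% of probes were well above background. In whole liver, fewer cells of a type and less RNA per cell cannot be told apart.

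All 8 genes were tested. S100a8, whose chow level is a bound, is among those called higher against chow in 1B, HFD and HFD+1B. A gene was called changed where limma's p, adjusted by Benjamini-Hochberg over every tested probe, did not exceed 0.05. In the HFD+1B mice against chow 5 were higher and 1 lower, where 7.88% of all tested probes were called higher and 6.89% lower, and the median difference of the 8 genes was 1.04 against -0.0012 over all probes. In HFD against chow 4 were higher and 1 lower (3.95% and 5.95% of all probes), and in 1B against chow 2 were higher and 1 lower (1.87% and 1.75%). Within the high-fat diet, HFD+1B against HFD, ethanol gave 2 higher and 1 lower (9.83% and 8.07%), and within ethanol, HFD+1B against 1B, the diet gave 4 higher and none lower (5.29% and 4.69%). The interaction, the ethanol difference on HFD minus that on chow, was called for none of the 8 (2.4% and 1.62% of all probes higher and lower), while 3 had an unadjusted p under 0.05 in limma.

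The genes did not share one pattern. S100a8 and S100a9 were highest with diet and ethanol together, S100a6 and S100a11 were high on the high-fat diet with or without ethanol, S100a10 was high with either and highest on the diet, and S100a13 was low after ethanol. S100a4 was called in 1 comparison, and S100a1 in none.

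**Figure D1:**
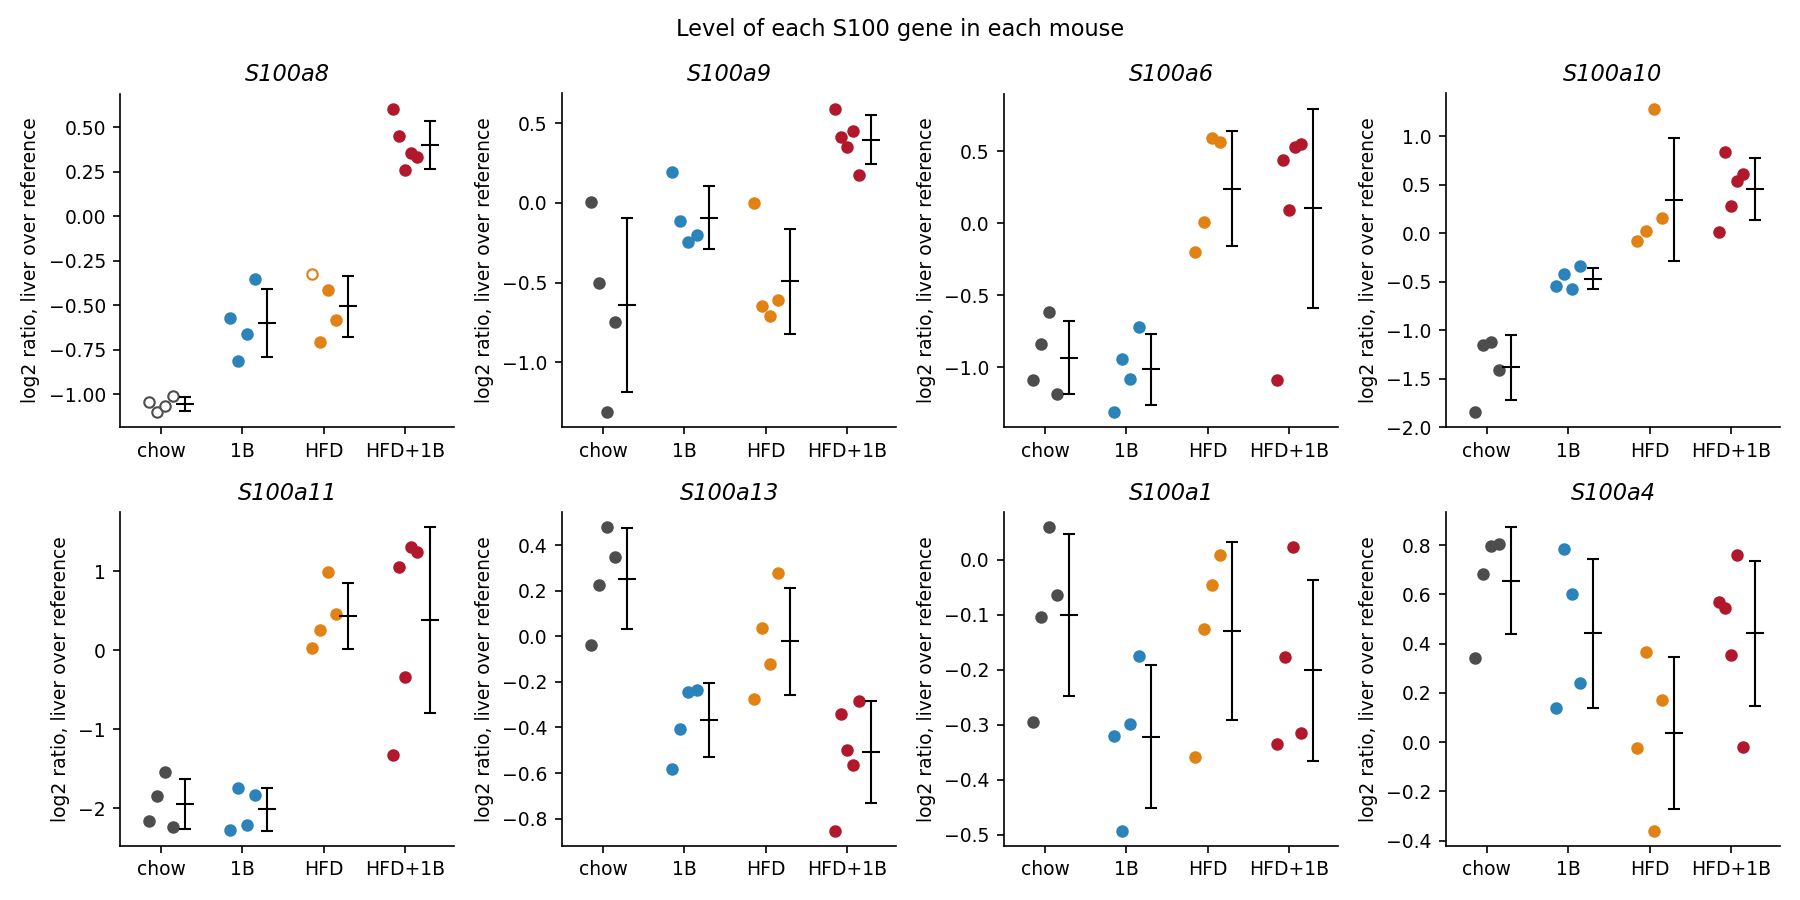
Log2 ratio of liver to reference RNA for each S100 gene in each mouse (points), with the mean and SD of each group (bar and whiskers); open points are spots not well above background, and the vertical axes differ between panels. All 5 HFD+1B mice lay above every other mouse for S100a8, and 1 HFD+1B mouse lay among the chow mice for S100a6.

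**Figure D2:**
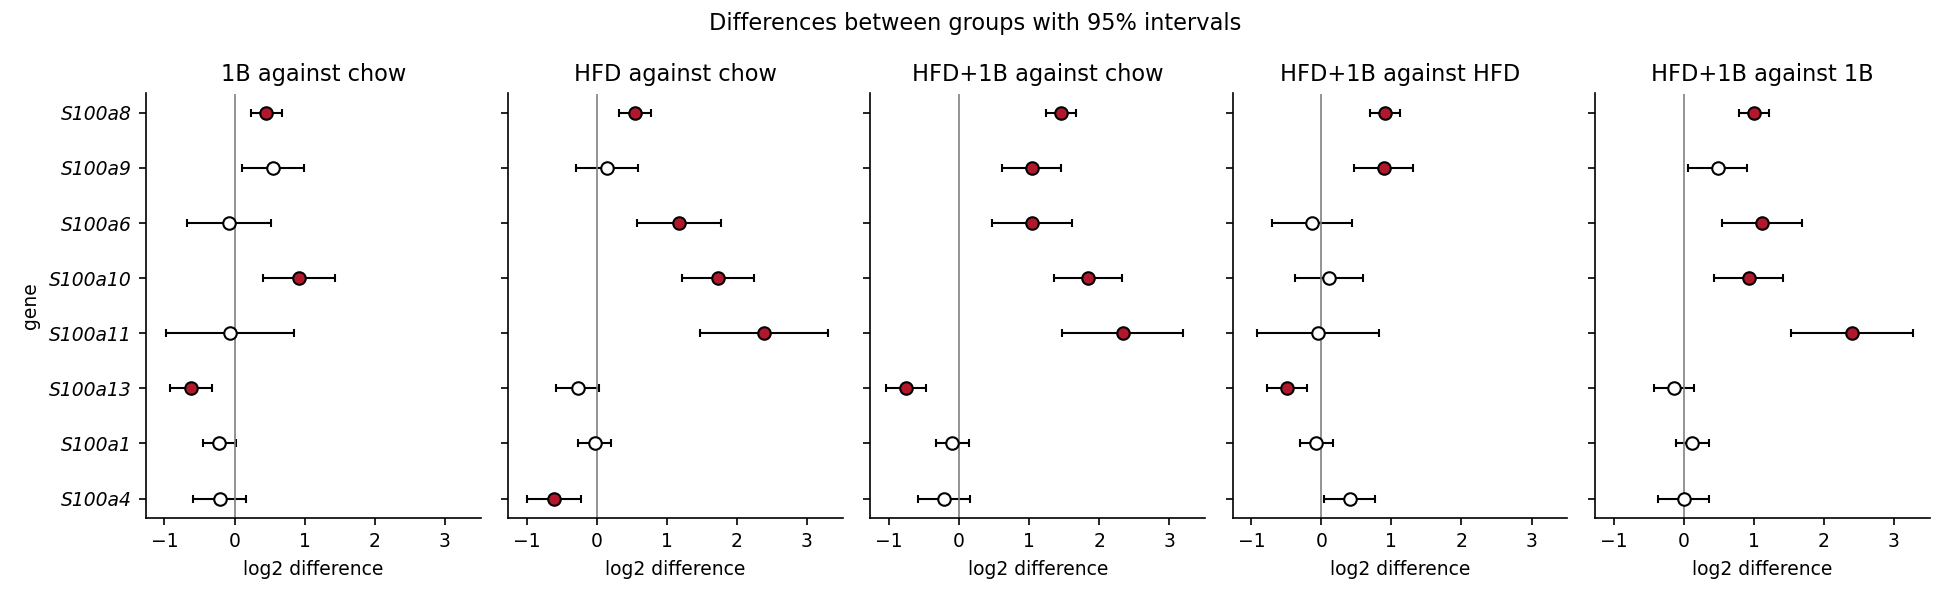
Log2 difference with its 95% interval for each S100 gene in 5 comparisons; filled points are differences called by limma. S100a11 had the widest intervals, and S100a1 had no filled point.

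The starts of S100a8 and S100a9 are shown because both neighbouring genes were called higher in HFD+1B against chow and against HFD. That of S100a11 is shown because it was called in all 3 comparisons of diets. The S100a13 window overlaps that of S100a1, read from the other strand, by 204 bases. It is shown because S100a13 was called and S100a1 was not. Each line runs 5′ to 3′ on the gene's strand from 250 bases before the RefSeq start to 50 after it, in build GRCm38.p6. Capitals mark matches on either strand to the letters of C/EBP (TTNNGNAA), AP-1 (TGANTCA), PU.1 and other ETS factors (GAGGAA), NF-kB and the TATA box (TATAAA); touching matches form 1 run of capitals.
S100a8, chr3:90668821-90669120, plus strand: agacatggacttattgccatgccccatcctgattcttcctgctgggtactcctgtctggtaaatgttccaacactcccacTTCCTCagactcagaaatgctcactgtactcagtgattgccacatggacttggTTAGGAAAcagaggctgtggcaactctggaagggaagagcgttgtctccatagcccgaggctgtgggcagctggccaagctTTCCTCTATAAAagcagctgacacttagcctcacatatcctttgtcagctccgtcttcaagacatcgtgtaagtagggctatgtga
S100a9, chr3:90695672-90695971, minus strand: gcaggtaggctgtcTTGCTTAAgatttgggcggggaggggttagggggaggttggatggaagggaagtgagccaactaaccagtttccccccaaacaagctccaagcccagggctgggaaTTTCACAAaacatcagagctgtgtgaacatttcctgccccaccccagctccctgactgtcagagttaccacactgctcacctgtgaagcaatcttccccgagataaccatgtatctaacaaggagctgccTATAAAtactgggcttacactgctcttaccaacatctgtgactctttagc
S100a11, chr3:93520246-93520545, plus strand: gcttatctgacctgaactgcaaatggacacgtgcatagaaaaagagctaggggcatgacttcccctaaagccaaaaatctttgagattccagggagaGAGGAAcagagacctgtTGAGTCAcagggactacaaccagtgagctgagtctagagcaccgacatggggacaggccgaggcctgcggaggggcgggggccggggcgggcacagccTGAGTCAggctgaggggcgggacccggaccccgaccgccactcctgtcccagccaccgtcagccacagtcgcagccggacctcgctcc
S100a13, chr3:90514185-90514484, plus strand: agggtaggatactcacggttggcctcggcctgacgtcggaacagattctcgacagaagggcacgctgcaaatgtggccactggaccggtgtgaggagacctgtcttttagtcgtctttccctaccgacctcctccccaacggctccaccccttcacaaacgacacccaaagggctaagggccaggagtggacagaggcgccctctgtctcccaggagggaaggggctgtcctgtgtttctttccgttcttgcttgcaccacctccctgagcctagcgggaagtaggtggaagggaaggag

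The S100a8 window held 1 C/EBP match, 2 ETS matches and a TATA box, and the S100a9 window 2 C/EBP matches and TATA letters at the RefSeq start itself. The S100a11 window held 2 AP-1 matches and 1 ETS match, and the windows of S100a13, S100a1 and S100a6 held none of the 5 motifs. Of 32851 promoter windows of the same length, 40.7% held the C/EBP letters, 28.3% the ETS letters, 13.6% the TATA letters, 7.81% the AP-1 letters and 1.63% the NF-kB motif. Windows were found for 7 of the 8 genes. A match is a string of letters and not a site that was shown to be bound.

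The probes that read 3 of the genes are given here because each level below rests on 1 such probe.
S100a8 probe: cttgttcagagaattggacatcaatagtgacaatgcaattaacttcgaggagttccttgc
S100a6 probe: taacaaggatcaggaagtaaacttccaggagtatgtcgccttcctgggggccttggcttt
S100a13 probe: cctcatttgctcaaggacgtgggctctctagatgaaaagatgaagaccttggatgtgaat

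S100a8 was dim in control liver and brightest where diet and ethanol were combined. Its Cy5 signal above local background was 9 to 13 in the chow mice, 20 to 51 in the 1B mice, 13.5 to 25 in the HFD mice and 56 to 199 in the HFD+1B mice. Chow had 0 of 4 arrays with the spot well above background, 1B had 4 of 4, HFD 3 of 4 (all but mouse 1) and HFD+1B 5 of 5. The chow level is therefore a bound, and the gene entered the test through the groups in which it was bright.

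The log2 ratio of S100a8 was -1.05, -1.10, -1.07 and -1.01 in chow and -0.57, -0.81, -0.66 and -0.35 in 1B. The HFD mice had -0.32, -0.71, -0.42 and -0.58, and the HFD+1B mice 0.60, 0.45, 0.26, 0.35 and 0.33. The highest HFD value was that of mouse 1, whose spot was not well above background. In the deposited ratios that mouse had -2.23, the lowest of the HFD mice. On these ratios the group means ran in the order chow, 1B, HFD, HFD+1B, the 1B and HFD mice overlapped and no other neighbours did. The order of 1B and HFD is not settled, since it was turned in the deposited ratios and on Cy5 alone.

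S100a8 was called higher than in chow in HFD+1B (log2 difference 1.46, SE 0.10, adjusted p = 1.29e-07), in 1B (0.46, SE 0.11, adjusted p = 0.0226) and in HFD, where 3 of 4 arrays measured it (0.55, SE 0.11, adjusted p = 0.00431). The chow spots lay at the floor (SD 0.037), so these p-values do not measure the spread of S100a8 between chow mice. With chow set at the floor of signals well above background, Cy5 after normalization between arrays put HFD+1B at least 2.63-fold higher under that scaling. No minimum fold is given for 1B and HFD, since values this close to the floor depended on the scaling: on Cy5 alone the differences from chow were 1.28 in HFD+1B, 0.45 in 1B and 0.27 in HFD. Between groups that measured it, S100a8 rose by 0.91 with ethanol on the high-fat diet (1.88-fold, SE 0.10, adjusted p = 3.47e-05) and by 1.00 with the diet among ethanol mice (2.0-fold, SE 0.10, adjusted p = 9.82e-06). On the 4 slides that held both ethanol groups, HFD+1B exceeded 1B by 0.71 to 1.18. The interaction was 0.45 (95% interval 0.14 to 0.76, adjusted p = 0.095).

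The size of these differences depends on how dim spots are treated. The deposited log2 ratios are formed without the offset of 50 added here. In them S100a8 differed from chow by 4.74 in HFD+1B, by 2.67 in 1B and by 2.35 in HFD. HFD+1B differed there from HFD by 2.38 and from 1B by 2.07, so the folds between groups that measured S100a8 are not settled either. The interaction was -0.28 in the deposited ratios, so its sign is not settled. The 1B call was lost without chow mouse 2 (0.44), 3 (0.45) or 4 (0.47), without 1B mouse 1 (0.45) or 4 (0.37), on median-centred ratios (0.47) and on Cy5 alone, and the HFD call was lost on Cy5 alone.

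S100a9 encodes the other subunit of calprotectin and was well above background on all 17 arrays. Its log2 ratio was 0.01, -0.50, -1.31 and -0.75 in chow and 0.20, -0.11, -0.25 and -0.20 in 1B. The HFD mice had -0.0019, -0.65, -0.71 and -0.61, and the HFD+1B mice 0.59, 0.41, 0.35, 0.45 and 0.17. Chow was the most spread group (SD 0.55, n = 4) and HFD+1B the tightest (SD 0.15, n = 5); the HFD+1B mice overlapped the 1B mice by 1 mouse and no mouse of chow or HFD.

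S100a9 was 2.05-fold higher in HFD+1B than in chow (1.04, SE 0.20, adjusted p = 0.00152) and 1.85-fold higher than in HFD (0.89, SE 0.20, adjusted p = 0.00539). It differed by 0.55 in 1B against chow (95% interval 0.11 to 0.99, adjusted p = 0.209), by 0.49 in HFD+1B against 1B (0.07 to 0.91, adjusted p = 0.147) and by 0.15 in HFD against chow (-0.29 to 0.59, adjusted p = 0.712), none of which was called. Without chow mouse 1, the highest of its group, the 1B difference was 0.76 and was called. The difference of HFD+1B from 1B was called with the slide as a block (0.51) and when only these 2 groups were fitted (0.49), and that of 1B from chow with array weights (0.68).

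Other neutrophil genes had a median difference close to 0. Of 22 tested, 3 were higher and 2 lower in HFD+1B against chow, with a median of -0.04, where 9.02% of all 19350 genes compared were higher and 7.3% lower with a median of 0.0022. Their mean level relative to chow ran from -0.08 to 0.11 over the chow mice, from -0.14 to 0.14 over the 1B mice, from -0.14 to 0.16 over the HFD mice and from -0.03 to 0.17 over the HFD+1B mice. Their summed Cy5 signal was 5104 to 11840, 3368 to 8860, 3042 to 7300 and 5642 to 10420 for the same groups in turn. On each array 20 to 24 of the 25 genes with a probe were well above background. The granule genes Mpo, Elane, Ltf, Camp and Ngp were well above background on all 17 arrays, though Elane was dim (Cy5 16 to 73). The part of neutrophils in the calgranulin levels was not tested beyond these values. The study itself reports a strong increase of liver neutrophils after the binge in HFD-fed mice, read by RT-PCR of Ly6g. Ly6g was among the 26 neutrophil genes listed and had no probe here.

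**Figure D3:**
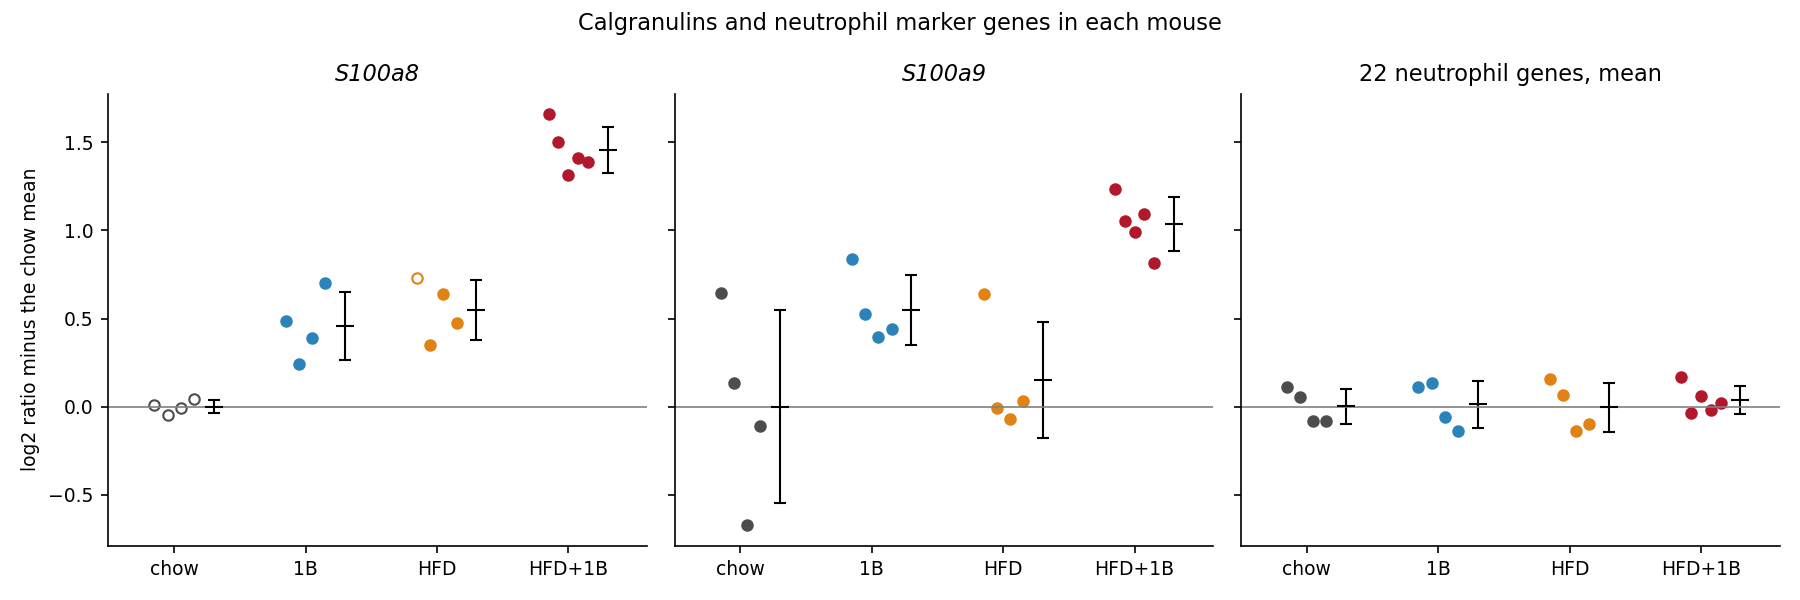
Log2 ratio minus the chow mean for S100a8, S100a9 and the mean of 22 neutrophil genes in each mouse, with the mean and SD of each group; open points are spots not well above background. S100a8 and S100a9 had mean differences of 1.46 and 1.04 in the HFD+1B mice, while the neutrophil mean stayed between -0.14 and 0.17 in every mouse.

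Single neutrophil genes went both ways. Hdc, histidine decarboxylase, rose by 1.56 in HFD+1B against chow (SE 0.14, adjusted p = 1.51e-06), by 0.57 in 1B against chow (adjusted p = 0.0426) and by 1.33 in HFD+1B against HFD (adjusted p = 2.47e-05). Csf3r, the receptor for the growth factor of granulocytes, fell by 1.03 in HFD+1B against chow (SE 0.23, adjusted p = 0.00449), and Ctsg, the granule protease cathepsin G, fell by 0.31 (SE 0.09, adjusted p = 0.0305).

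Most of the listed transcription factors known to act on the calgranulin genes in myeloid cells were higher in HFD+1B. Of 7 such genes tested, 5 were higher and 1 lower against chow (median 0.83; 9.02% and 7.3% of all genes), none was called in HFD against chow (median 0.33; 4.59% and 6.39%), and 1 was higher in 1B against chow (median 0.06; 2.13% and 2.02%). Stat3, the effector of Il6 signaling, rose by 1.28 in HFD+1B against chow (SE 0.14, adjusted p = 1.05e-05) and by 0.78 in 1B against chow (adjusted p = 0.00628). Cebpd rose by 1.32 (SE 0.19, adjusted p = 9.61e-05) and Hif1a by 0.83 (SE 0.16, adjusted p = 0.00129) in HFD+1B against chow. These factors are also made by hepatocytes.

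Cebpb and Cebpd are C/EBP factors, whose letters occur in both calgranulin windows above. Cebpb had group means of -0.32 (chow), -1.12 (1B), -0.75 (HFD) and 0.55 (HFD+1B), so that HFD+1B was higher than HFD by 1.30 (SE 0.21, adjusted p = 6.02e-04) and its interaction was 2.10 (SE 0.31, adjusted p = 0.00252). Cebpd had group means of -0.79, -0.66, -0.45 and 0.53 in the same order, and its interaction was 0.86 (adjusted p = 0.081).

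Among the receptors and signaling genes of S100 proteins, all 15 of those listed were tested, and 5 were higher and none lower in HFD+1B against chow (median 0.25), where 9.02% of all genes were higher and 7.3% lower. Cd36, a fatty acid and scavenger receptor that binds calprotectin, rose by 2.20 (SE 0.27, adjusted p = 2.23e-05), Cd14, the co-receptor of Tlr4, by 3.85 (SE 0.47, adjusted p = 2.42e-05), and Bsg, basigin, a receptor of S100a9, by 0.86 (SE 0.17, adjusted p = 0.0017). Cd36 was also higher in HFD against chow (1.81, SE 0.28, adjusted p = 8.48e-04). The main receptors of the alarmin themselves were not called in any comparison: Tlr4 differed by 0.19 (adjusted p = 0.428) and Ager, the receptor for advanced glycation end products, by -0.44 (adjusted p = 0.0593) in HFD+1B against chow. The diet alone gave 1 call of the 15 (4.59% of all genes higher), ethanol on the diet gave 2, near the share of all genes (10.9%), and the diet among ethanol mice gave 4 (6.23%), all of them higher. Ethanol on chow gave none, with a median of 0.09.

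S100a11, which binds annexin A1 and acts in membrane repair, had the largest difference of the genes that were measured in chow liver. S100a8, bounded there, had a larger one in the deposited ratios. The log2 ratio of S100a11 was -2.17, -1.84, -1.55 and -2.24 in chow and -2.27, -1.74, -2.22 and -1.84 in 1B. The HFD mice had 0.02, 0.26, 0.99 and 0.46. The HFD+1B mice had -1.33, 1.05, -0.34, 1.30 and 1.24, the widest group of all (SD 1.17, n = 5): mouse 1 lay just above the highest chow mouse and mouse 3 between chow and HFD.

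S100a11 was 5.22-fold higher in HFD than in chow (2.38, SE 0.43, adjusted p = 0.00257), 5.04-fold higher in HFD+1B than in chow (2.33, SE 0.41, adjusted p = 7.32e-04) and 5.29-fold higher in HFD+1B than in 1B (2.40, SE 0.41, adjusted p = 0.00112). Ethanol left no difference that could be told from the spread, at -0.07 on chow (95% interval -0.98 to 0.84) and -0.05 on the high-fat diet (-0.92 to 0.82). On the 4 slides holding both groups HFD+1B exceeded chow by 0.83 to 3.09. Without HFD+1B mouse 1 the difference from chow was 2.76.

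A probe annotated as LOC102637129, a predicted S100-A11-like protein gene that is not among the 8, had differences of 1.12 in HFD (adjusted p = 0.0227) and 1.08 in HFD+1B (adjusted p = 0.0125) against chow. How far the S100a11 probe and near-identical copies share signal was not tested.

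S100a6 (calcyclin), a partner of annexin A2 and of the ubiquitin ligase factor Cacybp, had the same pattern at a lower size. In chow its log2 ratio was -1.09, -0.84, -0.62 and -1.18, and in 1B -1.31, -0.94, -1.08 and -0.72. Mice on the high-fat diet had -0.20, 0.01, 0.59 and 0.56 with maltose and -1.08, 0.44, 0.09, 0.53 and 0.55 with ethanol. HFD+1B mouse 1, the low mouse for S100a11, was here within the range of chow, and the other 4 were above every chow and 1B mouse.

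S100a6 was 2.25-fold higher in HFD than in chow (1.17, SE 0.29, adjusted p = 0.0151), 2.05-fold higher in HFD+1B than in chow (1.04, SE 0.27, adjusted p = 0.014) and 2.17-fold higher in HFD+1B than in 1B (1.12, SE 0.27, adjusted p = 0.013). It differed by -0.08 in 1B against chow (95% interval -0.68 to 0.52) and by -0.14 in HFD+1B against HFD (-0.71 to 0.43). Without HFD+1B mouse 1 the difference from chow was 1.33; the call of HFD was lost without chow mouse 4 (1.09) or HFD mouse 3 (1.06), that of HFD+1B without chow mouse 4 (0.95), and on Cy5 alone all 3 calls were lost (0.97, 0.97 and 1.06). Within slides HFD+1B minus chow ran from 0.00018 to 1.39.

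S100a10 (p11), which pairs with annexin A2 in a tetramer that binds plasminogen activator and carries channels to the membrane, rose with both the diet and ethanol. Its log2 ratio was -1.84, -1.15, -1.13 and -1.41 in chow and -0.54, -0.42, -0.58 and -0.34 in 1B. On the high-fat diet it was -0.07, 0.02, 1.29 and 0.15 after maltose and 0.01, 0.84, 0.29, 0.54 and 0.62 after ethanol. Chow, 1B and the mice on the high-fat diet formed 3 separate steps with no overlap, while HFD and HFD+1B overlapped; HFD mouse 3 was the highest of all 17.

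S100a10 was 1.88-fold higher in 1B than in chow (0.91, SE 0.24, adjusted p = 0.0443), 3.32-fold higher in HFD (1.73, SE 0.24, adjusted p = 3.94e-04) and 3.58-fold higher in HFD+1B (1.84, SE 0.23, adjusted p = 3.11e-05). HFD+1B was 1.9-fold higher than 1B (0.93, SE 0.23, adjusted p = 0.0155) and differed from HFD by 0.11 (95% interval -0.38 to 0.60). The interaction of -0.80 (95% interval -1.51 to -0.10) was not called (adjusted p = 0.189), so a smaller ethanol difference on the high-fat diet was not established.

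The 1B call of S100a10 stood close to the threshold. It was lost in 12 of the 17 fits that left out 1 mouse (values from 0.76 to 1.00 over all 17), those without any of the 8 chow and 1B mice, HFD mouse 4 or HFD+1B mouse 3, 4 or 5, and on median-centred ratios (0.80), on Cy5 alone (0.83), in the deposited ratios (0.90), with no offset (0.92) and with no filter on dim probes (0.91). Cy5 alone also ended the call of HFD+1B against 1B (0.81). Without HFD mouse 3 the difference of HFD from chow was 1.42 and was still called. Within slides HFD+1B exceeded chow by 1.69 to 1.96 and 1B exceeded chow by 0.55 to 1.30.

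Of the 5 annexins listed, Anxa1, Anxa2 and Anxa5 were called higher on the diet with and without ethanol, Anxa11 was called lower in HFD+1B, and Anxa6 was called in no comparison. Anxa2, the partner of S100a10, had group means of -2.69 (chow), -2.81 (1B), -0.01 (HFD) and 0.51 (HFD+1B), and rose by 2.68 in HFD (SE 0.32, adjusted p = 1.38e-04) and by 3.20 in HFD+1B (SE 0.31, adjusted p = 2.67e-06) against chow. In 1B against chow, where S100a10 was higher by 0.91, Anxa2 differed by -0.12 (SE 0.32, adjusted p = 0.945). Anxa1, the partner of S100a11, rose by 0.54 in HFD (adjusted p = 0.0259) and by 0.62 in HFD+1B (adjusted p = 0.00475), and Anxa5 by 1.69 in HFD (adjusted p = 0.00257) and by 1.99 in HFD+1B (adjusted p = 1.43e-04). Anxa11 fell by 0.42 in HFD+1B against chow (adjusted p = 0.046) and by 0.44 against HFD (adjusted p = 0.0328), and Anxa6 differed from chow by 0.03 in HFD+1B (adjusted p = 0.934).

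Over the 22 listed partners and targets, all tested, 5 were higher and 1 lower in HFD+1B against chow (median 0.02; 9.02% and 7.3% of all genes), and 3 were higher and 1 lower in HFD against chow (median 0.11; 4.59% and 6.39%). Myh9, the non-muscle myosin heavy chain that S100a4 binds, rose by 1.09 in HFD+1B against chow (SE 0.11, adjusted p = 5.25e-06, 1 HFD+1B spot left out) and by 0.98 against HFD (adjusted p = 3.92e-05), with an interaction of 0.90 (adjusted p = 0.00702). Only Pygl, liver glycogen phosphorylase, was called in 1B against chow, with a rise of 0.72 (adjusted p = 0.0109). Ethanol on the high-fat diet gave 3 higher and 2 lower, near the shares of all genes (10.9% and 8.44%), and the diet among ethanol mice 4 higher and 1 lower (6.23% and 5.14%).

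**Figure D4:**
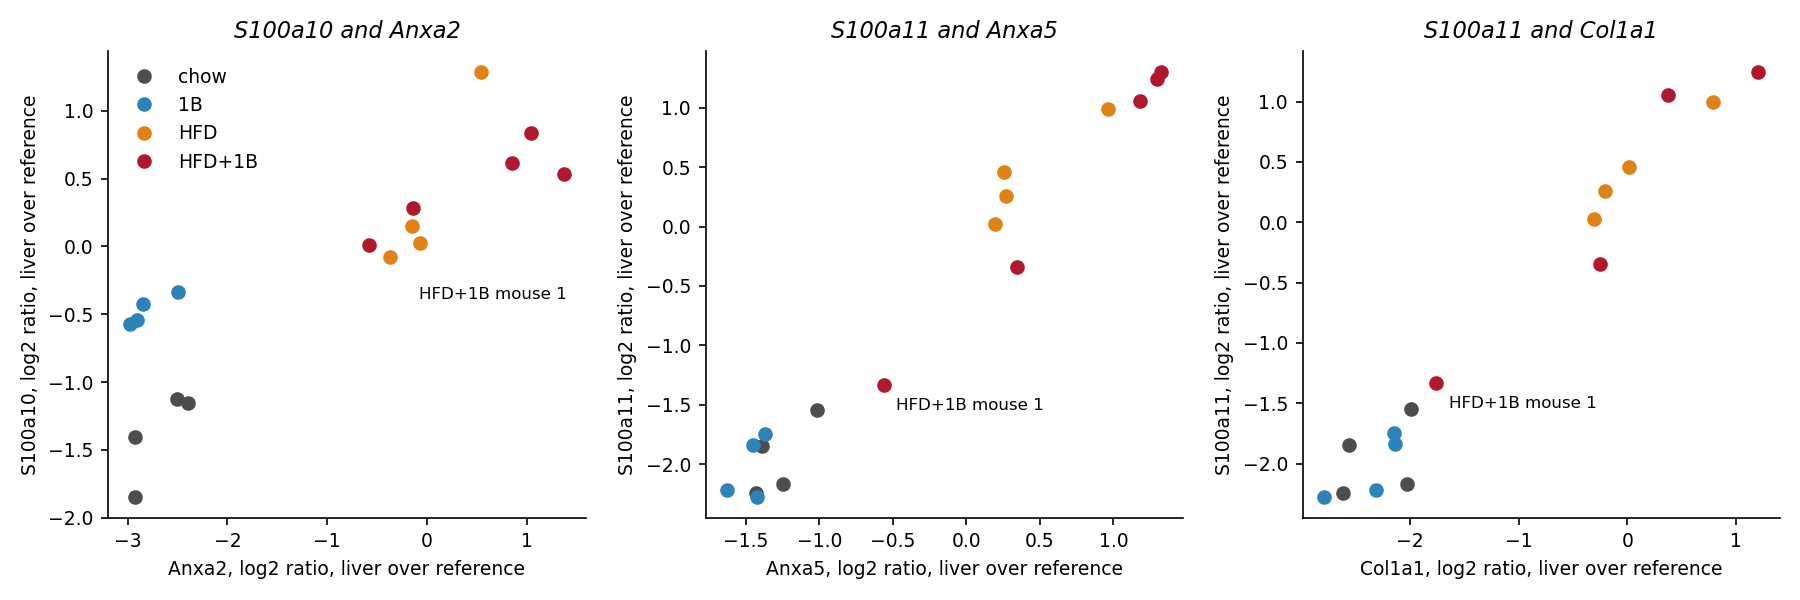
S100a10 against Anxa2, and S100a11 against Anxa5 and Col1a1, as log2 ratios of liver to reference in each mouse with a value, coloured by group (1 HFD+1B mouse has none for the brightest Col1a1 probe). The 1B mice lie apart from chow along S100a10 and not along Anxa2, and HFD+1B mouse 1 lies nearest to chow for S100a11, Anxa5 and Col1a1.

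S100a11 and S100a6 varied together from mouse to mouse. Their deviations from the group means correlated at 0.914 over the 17 arrays, those of S100a10 with S100a11 at 0.672 and with S100a6 at 0.662, and those of S100a8 with S100a9 at 0.266. These values are descriptions; the arrays share a reference RNA and a normalization.

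The genes most like each member, by Pearson correlation of the log2 ratio over all arrays with a value, were sought among 15949 genes well above background on all 17 arrays, and group differences enter these values. For S100a11 they were Anxa5 (0.984), Col1a1 (0.983) and Ccdc80 (0.981), and for S100a6 Hexa (0.977), Efemp2 (0.967) and 2210013O21Rik (0.967). For S100a10 they were Tubb2a (0.960), Kctd17 (0.951) and Chmp4b (0.937). Col1a1, here by a probe with a value on every array, encodes the main fibrillar collagen of scar, Hexa a lysosomal hexosaminidase and Tubb2a a beta tubulin. For S100a8 they were Tead1 (0.957), Smg1 (0.947) and Adamts1 (0.945), and for S100a9 Btg3 (0.899), 1200007C13Rik (0.899) and Map3k6 (0.881).

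Markers of stellate cells and fibroblasts were higher on the diet, as S100a6, S100a10 and S100a11 were, and also higher with ethanol on the diet, where those 3 genes were not called. Of 18 tested, 7 were higher and 1 lower in HFD against chow (median 0.60; 4.59% and 6.39% of all genes), 14 were higher and none lower in HFD+1B against chow (median 0.83; 9.02% and 7.3%), and 1 was higher in 1B against chow (median 0.06; 2.13% and 2.02%). In HFD+1B against HFD 6 were higher and none lower (median 0.19; 10.9% and 8.44%), while S100a6, S100a10 and S100a11 differed by -0.14, 0.11 and -0.05. Their mean level relative to chow was -0.09 to 0.09 over the chow mice, 0.02 to 0.14 over the 1B mice, 0.50 to 0.63 over the HFD mice and 0.32 to 1.19 over the HFD+1B mice, of which mouse 1 was lowest. Their summed Cy5 signal was 22880 to 30790, 15840 to 30690, 10780 to 37110 and 40070 to 72640 in that order, and all 18 were well above background on every array. Col1a1, by its brightest probe and without 1 outlier spot of HFD+1B, rose by 2.38 in HFD (SE 0.43, adjusted p = 0.00275) and by 2.19 in HFD+1B (adjusted p = 0.002), and Lgals1, galectin-1, without 1 outlier spot of chow, by 1.20 and 1.40 (adjusted p = 2.90e-04 and 1.02e-05). Their part in the levels of S100a6, S100a10 and S100a11 was not tested.

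Of 18 monocyte and macrophage markers tested, 6 were higher in HFD against chow (median 0.34; 4.59% of all genes) and none lower. In HFD+1B against chow 2 were higher (median 0.29), near the 9.02% of all genes, and none lower. Their mean relative to chow was -0.17 to 0.21 over the chow mice, -0.13 to 0.02 over the 1B mice, 0.36 to 0.47 over the HFD mice and 0.08 to 0.62 over the HFD+1B mice, with summed Cy5 signals of 5826 to 8928, 4270 to 7422, 3504 to 8930 and 5922 to 17140, and 15 to 19 of 19 genes were well above background on an array. Cd68, a lysosomal protein of macrophages, rose by 1.28 in HFD (adjusted p = 0.00117) and by 1.37 in HFD+1B (adjusted p = 1.14e-04). Their part was not tested either. Among the remaining lists, 1 of 10 cholangiocyte, 2 of 5 erythroid and 1 of 6 adipocyte genes were higher and none lower in HFD+1B against chow (9.02% and 7.3% of all genes), 2 of 8 endothelial genes were higher and 2 lower, and none of 7 T and NK cell or 5 B cell genes was called. Of 11 hepatocyte genes 2 were lower and none higher in HFD against chow (median -0.35; 6.39% and 4.59% of all genes), and 1 was higher and 2 lower in HFD+1B against chow (median -0.14). The hepatocyte mean relative to chow was -0.06 to 0.15 over the chow mice, -0.20 to -0.11 over the 1B mice, -0.62 to -0.27 over the HFD mice and -0.46 to 0.15 over the HFD+1B mice, and its part in the S100 levels was not tested.

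S100a13 was the one member that fell after ethanol. Its log2 ratio was -0.04, 0.23, 0.48 and 0.35 in chow and -0.58, -0.41, -0.24 and -0.23 in 1B. It was -0.27, 0.03, -0.12 and 0.28 in the HFD mice and -0.85, -0.34, -0.50, -0.57 and -0.28 in the HFD+1B mice. Every ethanol mouse lay below every mouse of the same diet given maltose, while HFD overlapped chow and HFD+1B overlapped 1B.

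S100a13 fell by 0.62 in 1B (1.54-fold, SE 0.14, adjusted p = 0.0195) and by 0.76 in HFD+1B (1.7-fold, SE 0.14, adjusted p = 8.21e-04) against chow, and by 0.49 in HFD+1B against HFD (1.4-fold, SE 0.14, adjusted p = 0.0195). It differed by -0.27 in HFD against chow (95% interval -0.58 to 0.03, adjusted p = 0.241) and by -0.14 in HFD+1B against 1B (-0.43 to 0.14, adjusted p = 0.638). The 1B call was lost without chow mouse 3 (-0.54) or 4 (-0.59), without 1B mouse 1 (-0.55) or 2 (-0.61), with no offset (-0.65), on Cy5 alone (-0.60) and in the deposited ratios (-0.67), and that against HFD without HFD mouse 4 (-0.39), on median-centred ratios (-0.22), on Cy5 alone (-0.34) and in the deposited ratios (-0.50). Cy5 alone also lost the call of HFD+1B against chow (-0.67).

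Of the cargoes of S100a13, Fgf1 differed from chow by -0.15 (1B), -0.46 (HFD) and -0.34 (HFD+1B), with adjusted p = 0.827, 0.092 and 0.194, and Il1a by -0.03, 0.46 and 0.19 in the same order (adjusted p = 0.977, 0.135 and 0.594), and neither was called in any comparison. S100a13 itself was most like Znrf3 (0.949), a ubiquitin ligase that limits Wnt signaling, Polr2m (0.942) and 2510002D24Rik (0.930) over the 17 arrays.

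S100a1, which starts next to S100a13 on the other strand, was called in no comparison. Its group means were -0.10 in chow (SD 0.15, n = 4), -0.32 in 1B (SD 0.13, n = 4), -0.13 in HFD (SD 0.16, n = 4) and -0.20 in HFD+1B (SD 0.16, n = 4, since 1 spot was marked an outlier and left out). The differences from chow were -0.22 in 1B (95% interval -0.46 to 0.02, adjusted p = 0.411), -0.03 in HFD (-0.27 to 0.21) and -0.10 in HFD+1B (-0.34 to 0.14), and all groups overlapped. The difference between the changes of S100a1 and S100a13 was not tested. Mouse by mouse the deviations of S100a1 and S100a13 from their group means correlated at 0.720 over 16 arrays. S100a1 was most like Xpr1 (0.891), a phosphate exporter, Tmem106b (0.857) and Gid4 (0.850).

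The log2 ratio of S100a4 ran from 0.34 to 0.81 over the chow mice, from 0.14 to 0.78 over the 1B mice, from -0.36 to 0.37 over the HFD mice and from -0.02 to 0.76 over the HFD+1B mice. HFD was the lowest group, with 3 of 4 mice below every chow mouse. S100a4 fell by 0.62 in HFD against chow (1.53-fold, SE 0.18, adjusted p = 0.0403). It differed by -0.21 in HFD+1B against chow (adjusted p = 0.496), by -0.21 in 1B against chow (adjusted p = 0.726) and by 0.40 in HFD+1B against HFD (95% interval 0.04 to 0.77, adjusted p = 0.119).

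The S100a4 call was lost with the slide as a block (-0.60), with no offset (-0.63), with no filter on dim probes (-0.62), on Cy5 alone (-0.63), and without chow mouse 2 (-0.61), 3 (-0.57) or 4 (-0.57) or HFD mouse 1 (-0.60), 3 (-0.49) or 4 (-0.66). Without HFD+1B mouse 5 its difference between HFD+1B and HFD, 0.52, was called, and on median-centred ratios, 0.67, it was called too. Although S100a4 is known as a fibroblast gene, it went down where the 18 stellate cell and fibroblast markers had a median of 0.60. S100a4 was most like Tmem35 (0.950), Zfp618 (0.927) and Stac3 (0.926).

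Of the other S100 genes, S100a3, a neighbour of S100a4 known from hair cuticle, was called. Its log2 ratio was -0.62 to -0.30 over the chow mice, -0.73 to -0.39 over the 1B mice, -0.65 to -0.40 over the HFD mice and -0.25 to 0.34 over the HFD+1B mice, so that the HFD+1B mice lay above all others. S100a3 rose by 0.49 in HFD+1B against chow (SE 0.11, adjusted p = 0.00532), by 0.55 against HFD (adjusted p = 0.00282) and by 0.55 against 1B (adjusted p = 0.00402), and its interaction was 0.61 (SE 0.16, adjusted p = 0.0445). S100a5, S100a14, S100a16, S100b and S100g were called in no comparison, with differences from chow between -0.40 (S100b, HFD) and 0.44 (S100g, HFD). S100a7a was well above background on 2 of 17 arrays and was not tested.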

How the data were processed

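The authors deposited 2-colour Agilent scanner intensities from Feature Extraction 11.5.1.1 and a series table of log2 ratios of its processed signals, Cy5 (liver) over Cy3 (reference), for 17 arrays on 5 slides; depth has no meaning here, and the number of arrays limits the precision. The 8 genes and all gene lists were chosen with earlier results of these data known.

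Median intensities were background-corrected (normexp, offset 50) and loess-normalized within arrays (limma 3.58.1, R 4.3.3), with control spots at weight 0 and outlier spots left out, and averaged per probe. The offset draws dim log2 differences toward 0. Group means were fitted to all arrays (limma, residual df 13), with Benjamini-Hochberg adjustment over 34650 probes. A gene dim in a group has a bound, from Cy5 after loess and Aquantile normalization: the mean of each array's lowest signal well above background, or the gene's own if higher. Genes with several probes use the brightest. Beside all 8 genes, up to 3 genes a list with the smallest adjusted p in HFD+1B against chow, and known partners, are named. Cebpa, Cebpb, Pygl and LOC102637129 were chosen after their values were seen. Alternatives covered background, scaling, filters, blocks, weights, the study's 2-fold rule, analysis of variance with the Tukey test, and leaving out each mouse. The fit was tested on simulated data. Replicate numbers do not say that mice came from separate litters or days, so p-values measure the spread between these mice. S100a8 is an exception, since its chow spots lay at the floor and enter the spread shared by all groups.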

Additional observations from a re-analysis of the deposited data

Results flagged for a closer look

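In 3 of 32 groups of mice, 1 mouse stood apart from the others of its group by Dixon's test, where chance marks about 1 group in 20. HFD+1B mouse 1 was the lowest of 5 for S100a6 (gap over range 0.719), HFD mouse 3 the highest of 4 for S100a10 (0.832), and HFD mouse 1 the highest of 4 for S100a9 (0.858). The first of these mice was also the lowest of its group for S100a11, Anxa2 and Col1a1, and the highest for S100a8 and S100a9.

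S100a3, which is not among the 8 genes, differed in its response to ethanol between the diets: the ethanol difference on the high-fat diet exceeded that on chow by 0.61 (adjusted p = 0.0445, limma).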

How the results depend on the processing

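No difference that was called changed sign under any alternative; of 709 values of called differences over all alternatives, 634 stayed called and 75 did not. The count of the 8 genes called in 1B against chow, 3, was 1 with no offset, on median-centred ratios and in the deposited ratios, and 0 on Cy5 alone, under the 2-fold rule, and for the Tukey test after Benjamini-Hochberg adjustment. In HFD against chow the count of 5 became 2 on Cy5 alone, 3 under the 2-fold rule and 2 for the adjusted Tukey test. Ethanol on the high-fat diet had a count of 3, which became 0 under the 2-fold rule and 1 for the adjusted Tukey test, and the diet among ethanol mice 4, which became 2 on Cy5 alone and 2 for the adjusted Tukey test. The cause was not tested, except that the 2-fold rule asks for a larger difference. Leaving out 1 mouse at a time gave 0 to 3 genes in 1B against chow, 3 to 5 in HFD against chow, 5 to 6 in HFD+1B against chow, 2 to 4 for ethanol on the high-fat diet, 4 each time for the diet among ethanol mice, and 0 for the interaction.

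Mice of different groups with the same replicate number deviated together with correlations from -0.126 to 0.48 (median 0.179, 24 pairs), against a median of -0.0491 for pairs with different numbers and 0.195 for mice of the same slide. A hint of pairing by number or slide is thus in the data, since 9 of 17 mice correlated best with one of their own number. Number and slide go together in part (all mice numbered 1 lay on slide 1), so their shares cannot be told apart. Not every pair of the same number showed it and no source ties a number to a litter or day, so no block was used. With the replicate block the interaction count was 1 (S100a4, 0.73) in place of 0, S100a9 was called in 1B against chow (0.55) and in HFD+1B against 1B (0.54), and S100a4 for ethanol on the high-fat diet (0.52), and no call was lost. The interaction of S100a8 was 0.45 and became -0.28 in the deposited ratios, called in neither.

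Centring arrays on their median changed the share of called probes that were higher from 39.9% to 14.9% in HFD against chow, from 53.3% to 65.9% in HFD+1B against chow, from 54.9% to 86.2% for ethanol on the high-fat diet, from 53.0% to 73.1% in HFD+1B against 1B and from 59.7% to 90.8% for the interaction. On Cy5 alone the shares were 21.7% in HFD against chow, 69.3% for ethanol on the high-fat diet and 86.1% for the interaction. No scaling moved the median of all probes by more than 0.0905. S100a8 in chow is limited by signal over background, and could not be tested where all 17 arrays had to be well above it. Its bounds use the Cy5 channel after loess and Aquantile normalization, without a dye swap, and are open to dye bias.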
